A study of Mus musculus with 30 samples.

Results

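The first 12 h of Wnt activation were followed in wildtype mouse embryonic stem cells (ESCs) as they left an epiblast-like state and began to take on the identity of neuromesodermal progenitors (NMPs), bipotent cells at the caudal end of the embryo whose descendants populate spinal cord and paraxial mesoderm. The libraries were chosen by their labels alone, 3 wildtype libraries at d2 and 3 at d2.5, which are 6 of the 30 libraries of the series. Cells were of the Bruce4 ESC line. At d2 they had received FGF2 for 48 h in N2B27, a serum-free medium, and at d2.5 they had received FGF2 together with CHIR99021 (CHIR) for a further 12 h. CHIR inhibits the kinase GSK3 and thereby activates the canonical Wnt pathway. ESCs were kept on mouse embryonic fibroblast feeders and were depleted of them before differentiation. The series holds no d2.5 group without CHIR, and the paper states that medium was refreshed every 24 h, with CHIR added at d2. CHIR, fresh medium with fresh FGF2, and 12 h more in culture therefore cannot be told apart in any difference below. The Nr6a1-/- cells used for 1 comparison came from 1 CRISPR/Cas9 clone of the same line and were treated in the same way, and the wildtype cells at d3 had received FGF2 and CHIR for 24 h. RNA was measured by 3′-end RNAseq, and the labels do not say whether replicates were separate cultures, so p-values measure a spread between libraries. That spread, and with it each standard error, was estimated from all 30 libraries in 1 model, not from these 6 alone.

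In cells without a Wnt signal, a destruction complex that contains Axin, APC and GSK3 marks β-catenin for degradation. Binding of Wnt ligands to Frizzled and LRP receptors, or direct inhibition of GSK3, lets β-catenin accumulate and join TCF/LEF factors at their target genes. Several of these targets encode inhibitors of the same pathway, and in the gastrulating embryo Wnt signalling induces primitive streak genes and maintains the caudal epiblast.

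Total counts of the 6 libraries ranged from 1935182 to 3039826, so that 3 counts, the limit that a count of 0 allows in 1 library, correspond to 0.987 to 1.55 CPM, the count of a gene scaled to its library's total. No pair of replicates was identical, the most abundant gene took at most 2.85% of a library, and mitochondrial genes took 3.24 to 4.43% with overlapping ranges at d2 and d2.5. All levels below are TMM-scaled CPM of single libraries, given in the order of replicates 1, 2 and 3, and since reads come from 3′ ends they were not divided by gene length and are not compared between genes. Differences are edgeR log2 fold changes of d2.5 against d2 with their standard errors, and a gene was called where its false discovery rate (FDR) was below 0.05.

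Levels of defining markers were read at d2 and d2.5. At d2 the epiblast genes Pou5f1 (20.6, 17.5 and 19.3 CPM), Otx2 (55.1, 44.6 and 51.6 CPM), Fgf5 (31.05, 37.7 and 27.5 CPM), Pou3f1 (342, 323 and 398 CPM), Dnmt3b (1689.6, 1763 and 1711 CPM) and Utf1 (554, 514 and 512 CPM) were all detected in each library. At d2.5 the NMP genes T, Sox2, Nkx1-2 and Cdx2 were each at or above 57.2 CPM in every library. Pou5f1, Dnmt3b and Utf1 were still detected at d2.5 and Sox2 was higher at d2, as given below, so detection of these genes does not by itself tell the states apart. Levels in bulk RNA do not tell fewer cells of a type from less RNA per cell.

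Of 12149 genes tested, 3086 (25.4%) were called. These comprised 1614 genes (13.3%) that were higher and 1472 (12.1%) that were lower at d2.5, that is 52.3% of calls were higher. This split depended on scaling: with library totals alone 65.9% of 3113 calls were higher, and with RLE factors 49.3% of 3079 were. Most called changes were small, with a median size of 0.73 on the log2 scale (quartiles 0.49 and 1.14) and a median SE of 0.17. A change of at least 2-fold was reached by 589 called genes that rose (4.85% of genes tested) and 376 that fell (3.09%). All 3 libraries at d2.5 lay above all 3 at d2 for 2341 genes (19.3%) and below them for 2371 (19.5%). These shares stand beside every statement below on whether groups overlapped. Such statements describe single genes and add no support to a call. The median log2 fold change over all genes tested was 0.01.

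**Figure D1:**
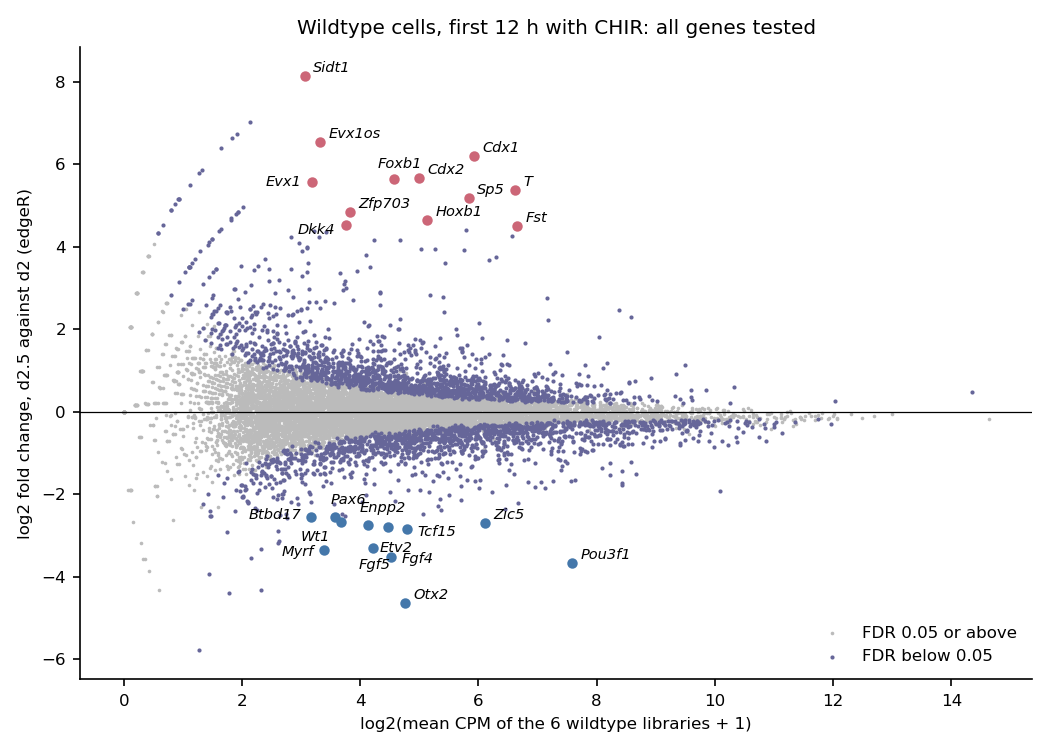
Each point is 1 of the 12149 genes tested, with log2 of its mean CPM plus 1 over the 6 wildtype libraries on the horizontal axis and its edgeR log2 fold change, d2.5 against d2, on the vertical axis. Dark points are the 3086 genes called, and the larger red and blue points are the 12 named rises and 12 named falls. The rises reach further from 0 than the falls, and points on curved lines at low mean CPM are genes with no or few counts in 1 group.

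Transcription factor genes of the primitive streak and caudal embryo were prominent among the 12 named rises. The highest fitted changes, those of Sidt1 and Evx1os, rest on 0 and 1 count at d2 and are given below. Cdx1, a caudal-type homeobox factor, was measured at 2.19, 2.12 and 0.688 CPM at d2 and 127, 117 and 109 CPM at d2.5. Its relative Cdx2 was at 1.75, 0.531 and 1.03 CPM at d2 and 60.98, 63 and 57.2 CPM at d2.5. T, which encodes Brachyury and marks the streak and NMPs, was at 2.62, 5.84 and 5.16 CPM at d2 and 202, 179 and 192 CPM at d2.5. For each of these 3 genes the lowest d2.5 library exceeded the highest d2 library many times over, with log2 fold changes of 6.19 ± 0.24 for Cdx1, 5.68 ± 0.27 for Cdx2 and 5.38 ± 0.17 for T.

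A homeobox gene of the streak, Evx1, had 2 counts over the d2 libraries and 96 over those at d2.5. This is a ratio of 56.2 (exact 95% interval 15.1 to 471), scaled, like all such ratios and bounds below, by library totals times their TMM factors. The RNA Evx1os, antisense to it, had 1 count at d2 and 108 at d2.5, a ratio of 126 (22.2 to 5041). Evx1os (chr6:52308389-52314832, minus strand) overlaps Evx1 (chr6:52313498-52318378, plus strand), and reads from the stretch that both share, at their 5′ ends, cannot be assigned to one of them, because no source used here says whether counting was stranded. These intervals cover counting error only. Foxb1, a forkhead factor gene of the early nervous system, stood at 0, 0.531 and 1.72 CPM at d2 and 41.4, 51.3 and 42.5 CPM at d2.5 (log2 fold change 5.65 ± 0.35, FDR 5.17e-15).

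Of the other named rises, Fst, which encodes the activin antagonist Follistatin, reached 205, 181 and 188 CPM from 8.75, 9.03 and 7.57 CPM (log2 fold change 4.51 ± 0.15, FDR 1.23e-23). Sidt1, a gene of a transmembrane protein of the SID-1 family (chr16:44240180-44333196), had no count in any d2 library and 13.3, 13.7 and 17.2 CPM at d2.5, at least 34.7-fold higher when 3 counts are allowed over the d2 group. The zinc finger gene Zfp703 was at 0.437, 0.531 and 1.38 CPM at d2 and 29.1, 25.9 and 22.3 CPM at d2.5 (log2 fold change 4.85 ± 0.31, FDR 8.41e-15). No library at d2.5 overlapped the d2 range for these genes, as the rule by which the 24 genes were named required.

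Regulators of the epiblast and of anterior neural tissue were prominent among the 12 named falls. Otx2, a homeobox factor of the formative epiblast and later of the forebrain and midbrain, was measured at 55.1, 44.6 and 51.6 CPM at d2 and 1.91, 1.52 and 2.53 CPM at d2.5 (log2 fold change -4.64 ± 0.50, FDR 7.38e-09). Pou3f1, a POU factor of the same state, was at 342, 323 and 398 CPM at d2 and 27.2, 27.4 and 28.8 CPM at d2.5 (log2 fold change -3.67 ± 0.44, FDR 5.26e-08). Zic5 was at 112, 125 and 118 CPM at d2 and 15.2, 17.3 and 21.8 CPM at d2.5 (log2 fold change -2.71 ± 0.31, FDR 1.85e-08). In each case d2.5 libraries were close to each other and far below the lowest d2 library.

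The FGF ligand genes Fgf5, a marker of the primed epiblast, and Fgf4, which ESCs express for autocrine ERK signalling, also fell. Fgf5 went from 31.05, 37.7 and 27.5 CPM to 1.91, 5.59 and 2.02 CPM (log2 fold change -3.31 ± 0.47, FDR 1.64e-06) and Fgf4 from 34.98, 41.95 and 44.7 CPM to 3.33, 4.06 and 3.04 CPM (log2 fold change -3.53 ± 0.25, FDR 2.59e-13). The basic helix-loop-helix gene Tcf15, known from the transition of ESCs out of naive pluripotency, was at 42.9, 52.6 and 46.1 CPM at d2 and 5.72, 7.11 and 6.58 CPM at d2.5. The ETS factor gene Etv2, an inducer of blood and endothelium, was at 36.7, 35.1 and 39.6 CPM at d2 and 6.19, 5.08 and 4.55 CPM at d2.5. Pax6, a neural and eye regulator, was at 20.6, 18.1 and 17.2 CPM at d2 and 4.76, 3.05 and 1.52 CPM at d2.5. These 3 fell by 2.85, 2.80 and 2.54 on the log2 scale. The other 4 named falls were Myrf, Enpp2, Wt1 and Btbd17, with log2 fold changes of -3.36 ± 0.53, -2.74 ± 0.44, -2.68 ± 0.36 and -2.55 ± 0.42. Enpp2 encodes autotaxin, the enzyme that makes lysophosphatidic acid.

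**Figure D2:**
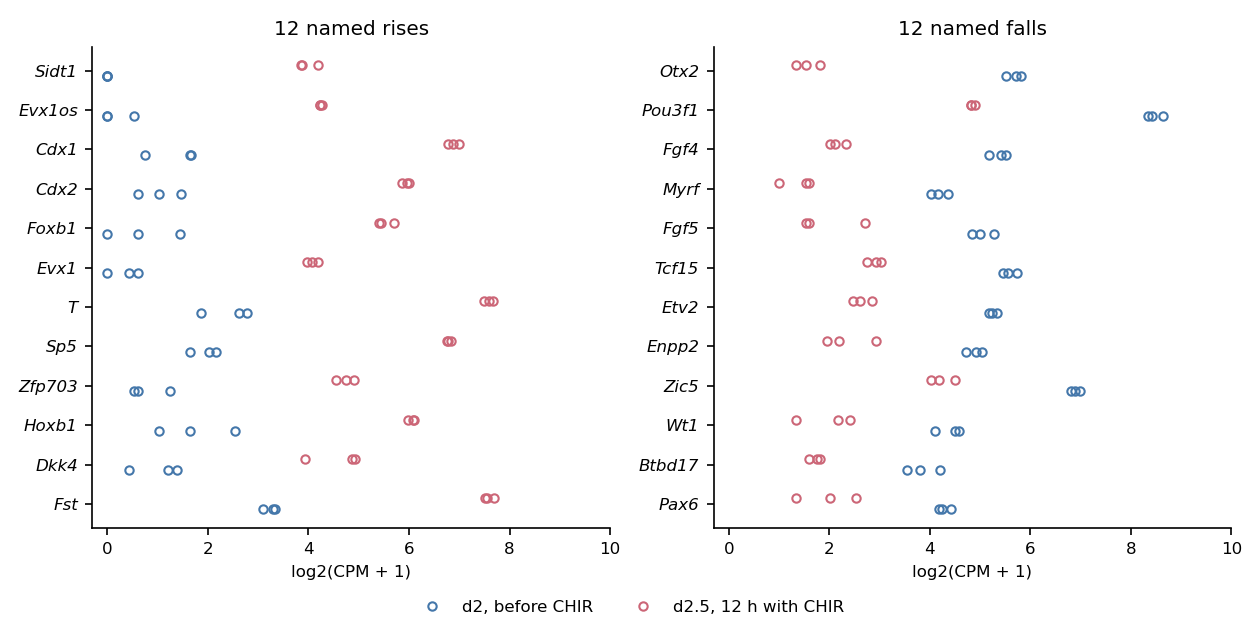
Points are single wildtype libraries, 3 at d2 (blue) and 3 at d2.5 (red), for the 12 named rises (left) and 12 named falls (right), with log2(CPM + 1) on the horizontal axis and the 2 groups set slightly apart vertically within each row. The groups do not overlap for any of the 24 genes, which the rule for naming them required, and the widest spread within d2.5 among the rises is that of Dkk4, at 28.1, 14.2 and 29.3 CPM.

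Feedback inhibitors of the Wnt pathway rose together with its classical targets. Of 16 genes on this list 15 were tested, of which 11 rose and 1 fell, against 13.3% and 12.1% of all genes tested, the shares beside which the counts of every list below stand, and their median log2 fold change was 2.00. Axin2, a scaffold of the destruction complex and the most widely used readout of canonical Wnt activity, was measured at 10.5, 11.2 and 9.64 CPM at d2 and 157, 113 and 129.5 CPM at d2.5 (log2 fold change 3.68 ± 0.15, FDR 1.29e-20). Sp5, a zinc finger repressor that restrains Wnt target genes, was at 3.06, 2.12 and 3.44 CPM at d2 and 108, 108 and 113 CPM at d2.5 (log2 fold change 5.19 ± 0.17, FDR 1.23e-23). The lowest d2.5 library was far above the highest d2 library for both.

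Secreted inhibitors were among them. Dkk1 and Dkk4, which encode Dickkopf antagonists of the LRP coreceptors, were at 2.19, 2.66 and 1.38 CPM at d2 and 20.01, 20.3 and 22.8 CPM at d2.5 and at 1.31, 1.59 and 0.344 CPM at d2 and 28.1, 14.2 and 29.3 CPM at d2.5 respectively. Notum, whose product removes the lipid from Wnt ligands, was at 0, 1.06 and 1.03 CPM at d2 and 10.5, 17.8 and 10.6 CPM at d2.5 and Nkd1, an inhibitor that binds Dishevelled, at 4.81, 5.31 and 3.79 CPM at d2 and 69.6, 68.1 and 72.9 CPM at d2.5. Log2 fold changes were 3.37 ± 0.26 for Dkk1, 4.52 ± 0.43 for Dkk4, 4.10 ± 0.44 for Notum and 3.94 ± 0.21 for Nkd1. Dkk4 in d2.5 replicate 2 lay below the other d2.5 libraries but above every d2 library, and groups did not overlap in the other 3 genes either.

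The membrane E3 ligase genes Znrf3 and Rnf43, whose products clear Frizzled receptors, also rose. Znrf3 was at 31.05, 49.9 and 41.98 CPM at d2 and 128, 113 and 165 CPM at d2.5 (log2 fold change 1.73 ± 0.15, FDR 4.33e-11). Rnf43 was at 2.19, 1.06 and 1.03 CPM at d2 and 4.29, 8.13 and 5.06 CPM at d2.5 (log2 fold change 2.00 ± 0.46, FDR 0.00129). Tnfrsf19, a receptor gene of the TNF receptor superfamily, rose from 7.0, 7.97 and 5.16 CPM to 98.1, 103 and 97.7 CPM (log2 fold change 3.92 ± 0.17, FDR 1.37e-19). The 2 TCF/LEF factor genes of the list rose less: Lef1 was at 112, 147 and 124 CPM at d2 and 203, 197 and 211 CPM at d2.5 (log2 fold change 0.68 ± 0.10, FDR 4.1e-06). Tcf7 was at 21.9, 26.6 and 32.7 CPM at d2 and 44.8, 43.7 and 40.5 CPM at d2.5 (log2 fold change 0.65 ± 0.16, FDR 0.00283). In all 5 genes the groups did not overlap.

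Not every gene known as a Wnt target in other tissues rose. Ccnd1, which encodes cyclin D1, fell slightly, from 262, 294 and 292 CPM to 243, 223 and 229 CPM (log2 fold change -0.29 ± 0.09, FDR 0.0113), and this call was lost without scaling factors (FDR 0.0885), without a filter on low counts (FDR 0.0572) and after thinning (FDR 0.0531). Myc was at 13.99, 19.6 and 11.7 CPM at d2 and 4.76, 9.65 and 13.2 CPM at d2.5 (log2 fold change -0.69 ± 0.27, FDR 0.0567), and passed the threshold as lower without d2 replicate 3 (FDR 0.0327) or without d2.5 replicate 3 (FDR 0.0131). The stem cell receptor gene Lgr5 was at 46.8, 43.02 and 45.1 CPM at d2 and 42.4, 56.4 and 62.2 CPM at d2.5 (log2 fold change 0.25 ± 0.14, FDR 0.194), with an FDR of 0.048 without d2.5 replicate 1. The pseudoreceptor gene Bambi was at 12.2, 9.56 and 15.1 CPM at d2 and 13.8, 9.15 and 7.08 CPM at d2.5 (log2 fold change -0.32 ± 0.26, FDR 0.38). The d2 and d2.5 ranges overlapped for Lgr5, Myc and Bambi.

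Promoters of 3 genes that rose and that hold the core of the TCF/LEF site are shown first, and those of 2 that rose as clearly and do not hold it follow. The core was written as CTTTGAA, also as CTTTGAT, also as CTTTGTA and also as CTTTGTT, and searched on both strands of the RefSeq promoter window (GRCm38.p6), with matches in capitals and the remainder in lower case. The windows are Sp5 at chr2:70474673-70474972 (plus strand), T at chr17:8434173-8434472 (plus strand), Dkk1 at chr19:30549447-30549746 (minus strand), Axin2 at chr11:108920099-108920398 (plus strand) and Cdx2 at chr5:147307200-147307499 (minus strand).
Sp5: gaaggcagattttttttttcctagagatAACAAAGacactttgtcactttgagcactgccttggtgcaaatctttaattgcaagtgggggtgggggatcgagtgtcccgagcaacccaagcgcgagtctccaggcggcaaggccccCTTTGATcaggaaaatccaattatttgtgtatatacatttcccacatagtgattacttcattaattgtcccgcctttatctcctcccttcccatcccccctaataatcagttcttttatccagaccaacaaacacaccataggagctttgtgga
T: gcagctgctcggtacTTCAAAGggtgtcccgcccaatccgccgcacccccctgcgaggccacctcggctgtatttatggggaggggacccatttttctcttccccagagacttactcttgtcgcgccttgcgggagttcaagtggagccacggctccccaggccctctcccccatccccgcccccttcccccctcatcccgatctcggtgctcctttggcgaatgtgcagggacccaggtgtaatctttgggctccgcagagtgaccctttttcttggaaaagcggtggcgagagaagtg
Dkk1: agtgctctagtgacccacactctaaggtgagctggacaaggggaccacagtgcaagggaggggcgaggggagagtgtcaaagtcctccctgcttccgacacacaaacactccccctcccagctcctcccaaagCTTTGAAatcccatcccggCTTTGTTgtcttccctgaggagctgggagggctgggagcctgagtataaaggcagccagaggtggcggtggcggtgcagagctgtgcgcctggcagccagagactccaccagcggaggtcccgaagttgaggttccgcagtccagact
Axin2: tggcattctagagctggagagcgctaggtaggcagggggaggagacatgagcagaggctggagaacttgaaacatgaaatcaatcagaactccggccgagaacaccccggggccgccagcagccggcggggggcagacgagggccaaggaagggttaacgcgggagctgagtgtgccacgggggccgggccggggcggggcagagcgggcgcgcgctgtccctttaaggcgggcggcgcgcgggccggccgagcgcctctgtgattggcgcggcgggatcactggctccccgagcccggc
Cdx2: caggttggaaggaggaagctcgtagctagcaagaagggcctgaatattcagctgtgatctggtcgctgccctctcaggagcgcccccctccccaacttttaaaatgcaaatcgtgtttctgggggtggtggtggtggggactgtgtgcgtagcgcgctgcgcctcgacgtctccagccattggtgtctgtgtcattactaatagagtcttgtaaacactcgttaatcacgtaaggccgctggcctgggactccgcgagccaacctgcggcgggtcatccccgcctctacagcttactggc
In Sp5 the matches began 222 and 104 bases upstream of the start, in T 235 bases upstream, and in Dkk1 117 and 98 bases upstream. At least 1 match was held by 16.9% of all 32851 promoters of the table and by 1196 of the 8800 tested genes with a promoter (13.6%). The share was 14.9% among genes called higher and 15.3% among genes called lower, and 17.5% and 16.6% among those changed by at least 2-fold. A match was held by 4 of 8 Wnt feedback and target genes with a promoter and by 5 of 12 genes of the caudal list. Among the other lists it ranged from 0 of 9 Notch pathway genes to 3 of 7 retinoid genes. It was held by 6 of 15 streak genes, 3 of 9 p53 targets, 4 of 14 cell cycle genes and 2 of 6 posterior Hox genes. The lists are small and were chosen with earlier results of these data known, so no enrichment can be read from them. These are counts of letters in a short window, and say nothing of sites elsewhere or of binding.

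Genes of Wnt ligands and of the proteins that act on them outside the cell were also mostly higher. Of 22 such genes 15 were tested, of which 9 rose and 1 fell, with a median of 2.14, or 1.98 with genes absent at d2 set to the smallest change their counts allow. Of the 10 called, 7 remained called under every alternative run. Wnt5b, a ligand that acts mainly outside the canonical branch, was at 1.75, 0.531 and 0.344 CPM at d2 and 17.2, 16.8 and 16.7 CPM at d2.5 (log2 fold change 4.23 ± 0.32, FDR 8.52e-13). Wnt8a, a ligand of the early streak, was at 1.31, 0 and 1.03 CPM at d2 and 10, 19.8 and 13.2 CPM at d2.5 (log2 fold change 3.99 ± 0.49, FDR 6.74e-08), and Wnt6 was at 0.875, 1.06 and 1.38 CPM at d2 and 12.4, 19.3 and 11.1 CPM at d2.5 (log2 fold change 3.60 ± 0.34, FDR 3.44e-10). All 3 were near the limit of a count of 0 at d2 and clearly above it in each d2.5 library.

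Wnt3, the ligand required for streak formation, was at 1.31, 2.12 and 4.47 CPM at d2 and 8.58, 14.7 and 16.2 CPM at d2.5 (log2 fold change 2.20 ± 0.34, FDR 6.22e-06). Wls, whose product carries Wnt proteins to the cell surface, was at 17.1, 13.3 and 12.4 CPM at d2 and 40.97, 51.8 and 37.4 CPM at d2.5 (log2 fold change 1.61 ± 0.18, FDR 7.44e-09). Frzb, a secreted Frizzled-related antagonist, had 0 counts at d2 and 17 at d2.5, at least 6.64-fold higher. By contrast Wnt3a, the ligand that later sustains the caudal progenitors, stood at 0, 1.06 and 0.344 CPM at d2 and 0.953, 0 and 1.52 CPM at d2.5, where the groups overlapped and the change was not detectable at this depth (log2 fold change 0.88 ± 1.03, FDR 0.572). At d3 it was at 23.7, 24.4 and 23.2 CPM. Porcn, which encodes the acyltransferase of Wnt ligands, was at 4.81, 3.19 and 5.85 CPM at d2 and 5.72, 6.61 and 4.55 CPM at d2.5 (log2 fold change 0.23 ± 0.38, FDR 0.697).

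Receptors, transducers and effectors of the pathway showed changes in both directions. Of 31 genes 29 were tested, of which 7 rose, 6 fell and 16 were not called, with a median log2 fold change of -0.08, which lay within 0.01 of 0 without scaling factors. Of the 13 called, 9 remained called under every alternative. Among Frizzled receptors 3 fell and 1 rose: Fzd5 was at 12.7, 14.9 and 11.7 CPM at d2 and 1.91, 4.06 and 2.53 CPM at d2.5, Fzd7 at 42.4, 34.5 and 26.8 CPM at d2 and 8.10, 12.2 and 6.07 CPM at d2.5 and Fzd2 at 54.7, 48.9 and 55.1 CPM at d2 and 24.3, 30.99 and 22.8 CPM at d2.5, with log2 fold changes of -2.18 ± 0.40, -1.96 ± 0.26 and -1.03 ± 0.15. Fzd10, in contrast, was at 7.43, 10.1 and 9.98 CPM at d2 and 185, 127 and 221 CPM at d2.5 (log2 fold change 4.27 ± 0.27, FDR 1.05e-14). The 2 groups did not overlap in any of these 4 genes.

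Of the TCF factors, Tcf7l1, the main repressor of Wnt targets in ESCs, fell from 59.5, 56.8 and 56.1 CPM to 19.1, 17.3 and 22.8 CPM (log2 fold change -1.54 ± 0.17, FDR 1.2e-08) while Tcf7 and Lef1 rose as given above. Tcf7l2 was lower as well, at 121, 123 and 168 CPM at d2 and 98.6, 66.1 and 105 CPM at d2.5 (log2 fold change -0.62 ± 0.15, FDR 0.00194). The Groucho corepressor genes moved in opposite directions, with Tle4 at 102, 103 and 132 CPM at d2 and 44.3, 39.6 and 59.2 CPM at d2.5 (log2 fold change -1.25 ± 0.14, FDR 8.29e-09). Tle3 was at 32.8, 32.9 and 43.4 CPM at d2 and 66.7, 59.4 and 59.2 CPM at d2.5 (log2 fold change 0.75 ± 0.15, FDR 0.000344). Dvl3, which encodes a Dishevelled adaptor, rose from 24.05, 40.9 and 40.3 CPM to 59.6, 71.1 and 64.8 CPM (log2 fold change 0.89 ± 0.13, FDR 3.59e-06).

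β-catenin, the GSK3 kinases and Apc were not called, while the destruction complex scaffold gene Axin1 rose (log2 fold change 0.60 ± 0.19, FDR 0.0188), a call lost after thinning (FDR 0.0926), without d2 replicate 3 (FDR 0.122) and without d2.5 replicate 1 (FDR 0.106). Ctnnb1, the gene of β-catenin, was at 6.12, 7.97 and 14.1 CPM at d2 and 7.15, 8.64 and 11.6 CPM at d2.5 (log2 fold change -0.10 ± 0.34, FDR 0.868). Gsk3b was at 124, 142 and 130.1 CPM at d2 and 144, 128 and 159 CPM at d2.5 (log2 fold change 0.13 ± 0.11, FDR 0.447). Gsk3a was at 21.9, 20.7 and 25.1 CPM at d2 and 26.7, 16.8 and 20.7 CPM at d2.5 (log2 fold change -0.08 ± 0.23, FDR 0.821). Apc was at 34.98, 50.98 and 41.3 CPM at d2 and 49.1, 59.4 and 51.1 CPM at d2.5 (log2 fold change 0.34 ± 0.17, FDR 0.14). Ranges at d2 and d2.5 overlapped in all 4 of these genes.

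**Figure D3:**
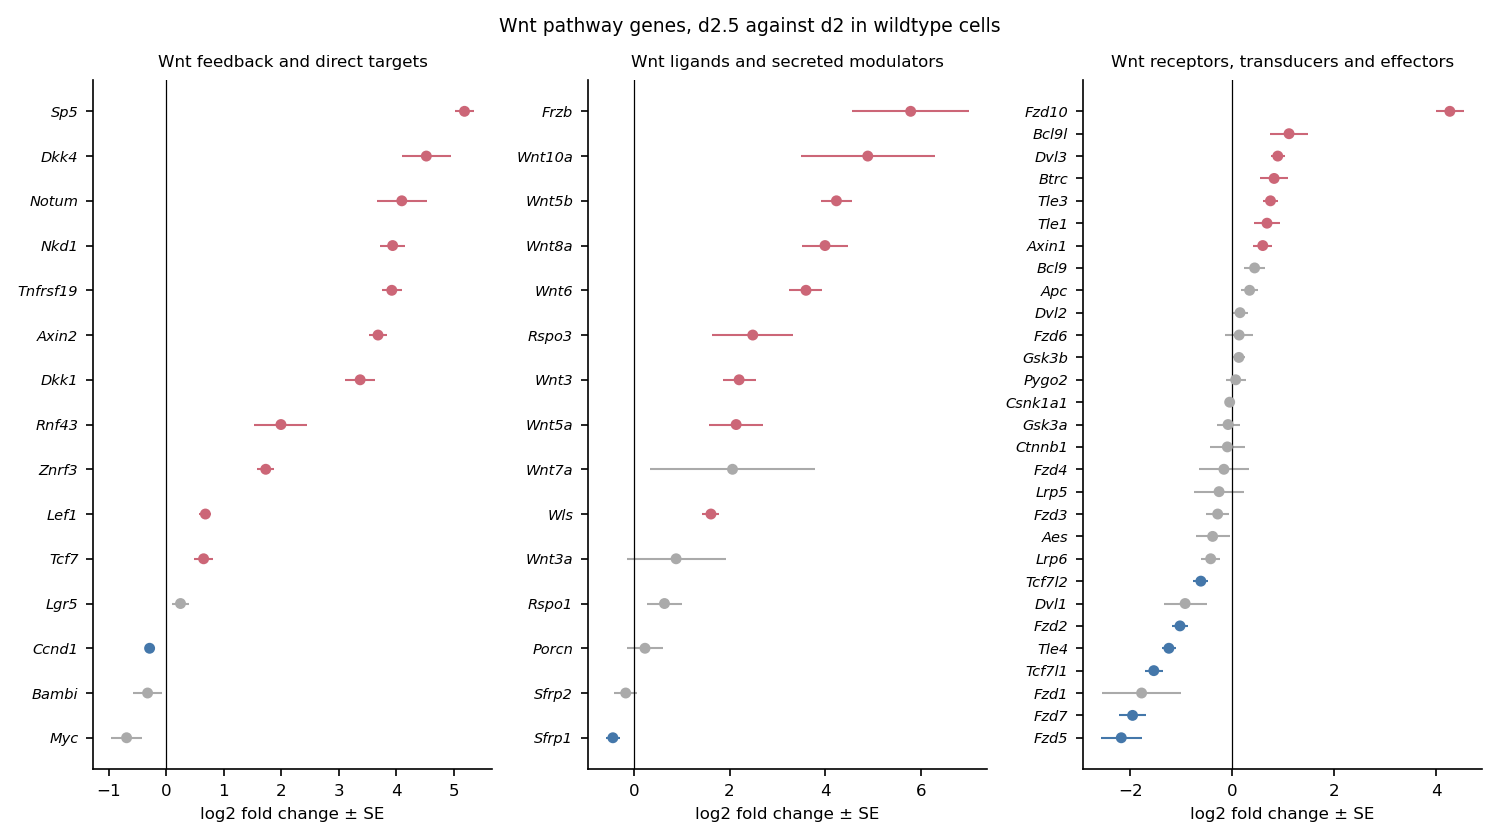
Points are edgeR log2 fold changes of d2.5 against d2 in wildtype cells and bars are their standard errors, for the tested genes of 3 Wnt lists, each panel with its own horizontal scale (red, called higher; blue, called lower; grey, not called; Aes is the name of Tle5 in the table). The feedback list lies mostly to the right of 0 with Sp5 at 5.19, whereas the receptor and effector list lies on both sides, from -2.18 for Fzd5 to 4.27 for Fzd10.

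Primitive streak and nascent mesoderm genes divided into genes that rose and genes near 0. Of 19 genes 18 were tested, of which 8 rose, 1 fell and 9 were not called, with a median of 1.08 (1.18 with bounds for genes without counts). All 9 calls remained under every alternative. Mixl1, a homeobox factor of the streak, was at 3.94, 4.78 and 3.10 CPM at d2 and 56.7, 39.1 and 82.5 CPM at d2.5 (log2 fold change 3.94 ± 0.34, FDR 2.37e-11). Eomes, a T-box factor of the anterior streak, was at 1.31, 1.59 and 1.03 CPM at d2 and 12.9, 15.8 and 13.2 CPM at d2.5 (log2 fold change 3.40 ± 0.46, FDR 4.79e-07), and Nodal was at 7.0, 6.90 and 9.64 CPM at d2 and 16.2, 19.3 and 19.2 CPM at d2.5 (log2 fold change 1.18 ± 0.27, FDR 0.00124). In these 3 genes every d2.5 library exceeded every d2 library.

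Tbx6, a gene of later paraxial mesoderm, and the list genes Mesp1 and Gsc were at or near 0 at both times. Tbx6 was at 0.437, 1.06 and 0.688 CPM at d2 and 0.476, 0.508 and 0.506 CPM at d2.5, Mesp1 at 0, 0 and 0.344 CPM at d2 and 0, 0 and 0.506 CPM at d2.5 and Gsc, a marker of the organizer, at 0.437, 0.531 and 0.344 CPM at d2 and 0.476, 0.508 and 0.506 CPM at d2.5. No value of these 3 exceeded the level of 3 counts in its library. The Nodal coreceptor gene Tdgf1 (Cripto) was the 1 gene of the list that fell, from 103, 116 and 107 CPM to 56.2, 53.3 and 62.2 CPM (log2 fold change -0.92 ± 0.18, FDR 0.000251). Apela, the ligand of the apelin receptor, rose from 127, 80.7 and 88.4 CPM to 157, 129 and 165 CPM (log2 fold change 0.61 ± 0.16, FDR 0.00529).

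The caudal epiblast and NMP list was the one with the highest median among the 25 lists, 3.99, with 13 of 17 genes higher, 1 lower and 3 not called. This rank is no test, because the lists were chosen with earlier results of these data known. The list also holds T, Cdx1, Cdx2 and Evx1, named above among the largest rises. Of the 14 called, 13 remained so under every alternative. Nkx1-2, a homeobox gene of the caudal lateral epiblast, was at 6.12, 5.31 and 3.44 CPM at d2 and 103, 109 and 99.7 CPM at d2.5 (log2 fold change 4.42 ± 0.24, FDR 8.91e-17). Cdx4 was at 0.875, 1.06 and 0.688 CPM at d2 and 20.5, 16.8 and 18.2 CPM at d2.5 (log2 fold change 4.37 ± 0.32, FDR 4.38e-13). Fgf8, the FGF ligand of the caudal progenitor zone, was at 3.06, 1.59 and 1.03 CPM at d2 and 35.3, 34.6 and 31.9 CPM at d2.5 (log2 fold change 4.17 ± 0.30, FDR 2.83e-13). None of the d2.5 values came near the d2 range.

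Sp8, a relative of Sp5, was at 10.5, 8.50 and 7.23 CPM at d2 and 52.4, 38.1 and 95.6 CPM at d2.5 (log2 fold change 2.83 ± 0.30, FDR 2.63e-09), with replicate 3 the highest of the d2.5 libraries. Greb1 was at 4.81, 3.72 and 4.82 CPM at d2 and 13.3, 13.7 and 15.2 CPM at d2.5 (log2 fold change 1.63 ± 0.25, FDR 5.95e-06). Epha5, an Eph receptor gene, was at 1.75, 0.531 and 0.688 CPM at d2 and 6.19, 3.56 and 7.59 CPM at d2.5 (log2 fold change 2.49 ± 0.52, FDR 0.000459). Hes3, a Hes-family repressor gene, had 1 count at d2 and 29 at d2.5, a ratio of 34.0 (exact 95% interval 5.63 to 1387). Sox2, which NMPs share with the neural lineage and with ESCs, was the 1 gene that fell, from 111, 134 and 133 CPM to 87.2, 84.3 and 94.6 CPM (log2 fold change -0.51 ± 0.13, FDR 0.00402). Cyp26a1, the retinoic acid degrading enzyme of the tailbud, was at 2.62, 2.66 and 2.41 CPM at d2 and 4.76, 2.54 and 4.55 CPM at d2.5 (log2 fold change 0.63 ± 0.45, FDR 0.321), with overlapping groups.

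In the formative and primed epiblast list 12 of 17 genes fell, 4 rose and 1 was not called, with a median of -1.72. Of the 16 called, 13 remained called under every alternative. Beyond Otx2, Pou3f1 and Fgf5, the de novo DNA methyltransferase genes Dnmt3b (1689.6, 1763 and 1711 CPM at d2 and 468, 463 and 429 CPM at d2.5, log2 fold change -1.92 ± 0.32, FDR 2.35e-05) and Dnmt3a (467, 581 and 552 CPM at d2 and 174, 145 and 145 CPM at d2.5, log2 fold change -1.78 ± 0.16, FDR 5.58e-11) fell. So did Utf1, an epiblast chromatin factor, from 554, 514 and 512 CPM to 158, 152 and 169 CPM (log2 fold change -1.72 ± 0.29, FDR 1.9e-05). Zic2 was at 117, 159.9 and 159 CPM at d2 and 32.9, 14.2 and 37.9 CPM at d2.5 (log2 fold change -2.35 ± 0.24, FDR 1.93e-09). Foxd3 had 53 counts over the d2 libraries and 2 at d2.5, a ratio of 0.0442 (exact 95% interval 0.00522 to 0.168). For each of these 5 genes all d2.5 libraries were below all d2 libraries.

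The genes of this list that rose belong to the Nodal branch and to pluripotency, but the Nodal coreceptor gene Tdgf1 fell, as given above. The rise of Lefty2 lost its call without d2 replicate 1 (FDR 0.136), without d2.5 replicate 1 (FDR 0.118) and without d2.5 replicate 3 (FDR 0.0681). Lefty1, a feedback inhibitor of Nodal, was at 19.7, 24.96 and 24.8 CPM at d2 and 56.2, 67.1 and 63.8 CPM at d2.5 (log2 fold change 1.43 ± 0.14, FDR 4.84e-10), and Nanog was at 20.1, 19.6 and 25.5 CPM at d2 and 46.2, 50.8 and 65.8 CPM at d2.5 (log2 fold change 1.30 ± 0.18, FDR 9.52e-07). At d3 Nanog was at 14, 13.4 and 13.2 CPM, below its d2 range. Pou5f1 (Oct4) was at 20.6, 17.5 and 19.3 CPM at d2 and 13.8, 14.7 and 14.2 CPM at d2.5 (log2 fold change -0.43 ± 0.25, FDR 0.208), where all 3 d2.5 libraries lay below those at d2 but the change did not pass the test.

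Among 13 genes of naive pluripotency 11 were tested, of which 4 rose, 1 fell and 6 were not called, with a median of 0.36. Tbx3 was at 8.75, 9.56 and 7.57 CPM at d2 and 36.7, 30.5 and 54.1 CPM at d2.5 (log2 fold change 2.24 ± 0.24, FDR 5.67e-09). Tfcp2l1 was at 4.81, 10.6 and 8.60 CPM at d2 and 30.01, 21.3 and 26.8 CPM at d2.5 (log2 fold change 1.71 ± 0.24, FDR 8.55e-07). Esrrb was at 2.19, 2.12 and 4.47 CPM at d2 and 10, 7.11 and 8.60 CPM at d2.5 (log2 fold change 1.46 ± 0.39, FDR 0.0048). Tfcp2l1 and Esrrb encode factors of the naive network known to respond to GSK3 inhibition in ESCs. The 3 genes did not overlap between groups, while Zfp42 (Rex1), at 20.1, 13.3 and 17.2 CPM at d2 and 24.3, 21.3 and 19.7 CPM at d2.5, was not called (log2 fold change 0.36 ± 0.20, FDR 0.2). Fgf4, described above, was the gene that fell.

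Most anterior neural genes were too low to test, with 4 of 14 passing the filter on low counts, of which 2 fell and 1 rose. Sox1, the earliest neural plate marker of the Sox family, was at 14.4, 15.9 and 23.1 CPM at d2 and 4.29, 3.05 and 4.05 CPM at d2.5 (log2 fold change -2.23 ± 0.32, FDR 2.18e-06) and fell, as did Pax6. Markers of neurons moved in the same direction, with Tubb3 at 68.2, 69.04 and 67.4 CPM at d2 and 31.4, 43.2 and 40.5 CPM at d2.5 (log2 fold change -0.83 ± 0.20, FDR 0.00157). Elavl3 was at 19.2, 16.5 and 30.97 CPM at d2 and 10.5, 8.13 and 9.61 CPM at d2.5 (log2 fold change -1.27 ± 0.27, FDR 0.000439). The d2 libraries were the higher ones for Sox1, Pax6, Tubb3 and Elavl3. The anterior neural gene that rose was Zic1. Its call was lost after thinning (log2 fold change 1.82, FDR 0.0647) and without d2 replicate 2 (log2 fold change 1.57, FDR 0.0627).

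Hox genes, which give axial position and lie in 4 clusters expressed in the order of their paralogue groups, were called higher in groups 1 to 5 and in groups 6 to 9. Whether these sets of groups differed was not tested. In groups 1 to 5, 9 of 13 tested genes rose and 0 fell, with a median of 3.61 (2.81 with bounds). In groups 6 to 9, 6 of 11 rose and 0 fell, with a median of 1.88 (2.48 with bounds). In groups 10 to 13, 0 of 10 tested genes were called, and 6 of these were at or under the limit of 3 counts over the group at both times. Of the 15 calls 11 remained under every alternative, 8 of 9 in groups 1 to 5 and 3 of 6 in groups 6 to 9.

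Hoxb1, a group 1 gene of the B cluster active in the caudal embryo and hindbrain, rose with ample counts. It was at 4.81, 2.12 and 1.03 CPM at d2 and 67.2, 61.99 and 66.8 CPM at d2.5 (log2 fold change 4.65 ± 0.22, FDR 7.55e-19), and every d2.5 library lay far above every d2 library. Hoxa5 was at 2.62, 2.66 and 1.72 CPM at d2 and 9.05, 6.10 and 6.58 CPM at d2.5 (log2 fold change 1.66 ± 0.36, FDR 0.000635). Hoxa2 was at 2.62, 1.59 and 0.688 CPM at d2 and 8.10, 4.57 and 7.59 CPM at d2.5 (log2 fold change 2.08 ± 0.42, FDR 0.000312).

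Several of the called Hox genes were at low counts. Hoxb4 had 1 count over the d2 group and 30 at d2.5, a ratio of 35.1 (exact 95% interval 5.84 to 1433), and Hoxb2 had 1 and 24, a ratio of 28.1 (4.58 to 1156). Hoxc4 had 0 and 18, at least 7.03-fold higher. In the trunk groups Hoxb6 had 2 and 22 counts, a ratio of 12.9 (3.17 to 113), Hoxb9 had 2 and 21, a ratio of 12.3 (3.01 to 108), and Hoxc8 had 1 and 13, a ratio of 15.2 (2.29 to 647). The intervals are wide and overlap between all of these genes, so no order among them can be read.

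**Figure D4:**
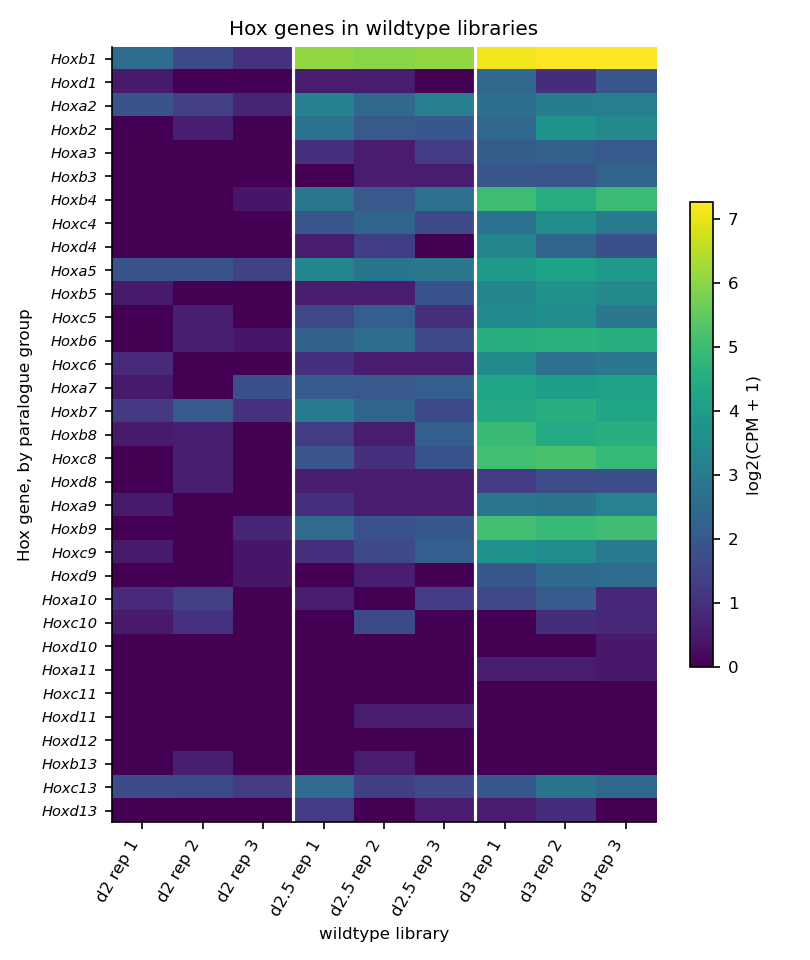
Colour gives log2(CPM + 1) of tested Hox genes (rows, by paralogue group) in the 9 wildtype libraries at d2, d2.5 and d3 (columns, 3 replicates each), with white lines between stages. Of the genes drawn Hoxb1 is the brightest at d2.5, and trunk genes such as Hoxb9 and Hoxc8 are bright at d3, at 32.8, 29.5 and 32 CPM and 32.3, 34.99 and 28.4 CPM.

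Targets of FGF and ERK signalling mostly fell or were not called, although FGF2 was present at both times. Of 17 genes 2 rose, 6 fell and 9 were not called (median -0.39), and without scaling factors 3 rose and 4 fell. Of the 8 called, 4 remained so under every alternative. Dusp6, an ERK phosphatase gene, was at 181, 262 and 253 CPM at d2 and 74.8, 41.2 and 102 CPM at d2.5 (log2 fold change -1.67 ± 0.25, FDR 2.95e-06), Spry2, a Sprouty inhibitor, at 348, 501 and 408 CPM at d2 and 174, 119.9 and 239 CPM at d2.5 (log2 fold change -1.24 ± 0.19, FDR 4.28e-06), and the ETS factor gene Etv5 at 63.4, 94 and 98.1 CPM at d2 and 39.5, 35.6 and 42.5 CPM at d2.5 (log2 fold change -1.12 ± 0.15, FDR 5.53e-07). All 3 showed no overlap between groups, with replicate 2 the lowest of the d2.5 libraries. Il17rd (Sef), an inhibitor of the same pathway, rose from 8.75, 6.90 and 12.04 CPM to 40.02, 44.7 and 30.4 CPM (log2 fold change 2.00 ± 0.24, FDR 3.69e-08).

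In the Nodal and BMP list 5 of 15 tested genes rose, 4 fell and 6 were not called (median 0.55), and the 9 calls remained under every alternative. The ligand gene Bmp7 was at 2.62, 2.66 and 2.41 CPM at d2 and 18.6, 13.2 and 18.2 CPM at d2.5 (log2 fold change 2.69 ± 0.35, FDR 2.73e-07). Its groups did not overlap. The Id genes, BMP targets that encode inhibitors of basic helix-loop-helix factors, diverged: Id3 was at 25.4, 19.6 and 19.96 CPM at d2 and 45.7, 55.4 and 57.7 CPM at d2.5 (log2 fold change 1.29 ± 0.19, FDR 2.67e-06). Id2 was at 42.4, 41.4 and 43.01 CPM at d2 and 15.7, 14.7 and 13.2 CPM at d2.5 (log2 fold change -1.54 ± 0.18, FDR 2.6e-08).

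Of 11 tested Notch pathway genes 2 rose and 0 fell (median 0.22), a share close to that of all genes. Hes1 was at 103, 121 and 117 CPM at d2 and 174, 191 and 206 CPM at d2.5 (log2 fold change 0.75 ± 0.10, FDR 4.78e-07). The segmentation clock gene Hes7 was at 2.62, 1.06 and 1.38 CPM at d2 and 2.86, 2.54 and 1.01 CPM at d2.5 and the ligand gene Dll1 at 8.75, 6.90 and 8.60 CPM at d2 and 5.72, 3.56 and 9.61 CPM at d2.5, neither called, with values of 36.7, 26.2 and 30 CPM and 26.1, 25.3 and 16.8 CPM at d3. Notch2 was at 86.6, 125 and 114 CPM at d2 and 113, 44.2 and 210.5 CPM at d2.5 (log2 fold change 0.18 ± 0.31, FDR 0.711), a wider spread at d2.5 than at d2, with replicate 2 the lowest.

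Retinoid genes were called in both directions, 4 of 10 higher and 2 lower (median 0.43), against 13.3% and 12.1% of all genes tested. Stra6, which encodes a receptor for vitamin A uptake, was at 2.19, 1.06 and 0.688 CPM at d2 and 12.4, 11.2 and 15.2 CPM at d2.5 (log2 fold change 3.29 ± 0.38, FDR 2.6e-08) and the binding protein gene Crabp1 at 23.2, 26.6 and 20.6 CPM at d2 and 109.6, 103 and 98.7 CPM at d2.5 (log2 fold change 2.16 ± 0.13, FDR 5.13e-16). Its relative Crabp2 was at 44.2, 32.9 and 39.2 CPM at d2 and 23.3, 20.8 and 19.2 CPM at d2.5 (log2 fold change -0.88 ± 0.17, FDR 0.000206) and the receptor gene Rarg at 83.1, 75.4 and 69.5 CPM at d2 and 45.3, 34.04 and 29.9 CPM at d2.5 (log2 fold change -1.05 ± 0.13, FDR 8.38e-08). Groups were separate in all 4.

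The epithelial adhesion genes Cdh1, Epcam and Cldn7 fell, while Cdh2 and Vim, known from mesenchymal and neural cells, rose. On the list of the cadherin switch and epithelial-mesenchymal transition 5 of 17 genes rose, 4 fell and 8 were not called (median 0.03), and 6 of the 9 calls remained under every alternative. Cdh1, the gene of E-cadherin, was at 249, 225 and 254 CPM at d2 and 151, 149 and 134 CPM at d2.5 (log2 fold change -0.75 ± 0.16, FDR 0.00043). Epcam was at 541, 673 and 646 CPM at d2 and 373, 351 and 421 CPM at d2.5 (log2 fold change -0.70 ± 0.17, FDR 0.00189) and the claudin gene Cldn7 at 83.95, 70.1 and 77.8 CPM at d2 and 37.2, 38.6 and 44.5 CPM at d2.5 (log2 fold change -0.95 ± 0.16, FDR 1.76e-05). Cdh2, the gene of N-cadherin, was at 15.7, 12.7 and 12.04 CPM at d2 and 29.5, 25.4 and 18.2 CPM at d2.5 (log2 fold change 0.86 ± 0.20, FDR 0.00137), and Vim, the gene of vimentin, at 73.5, 59.5 and 51.6 CPM at d2 and 97.7, 99.6 and 92.1 CPM at d2.5 (log2 fold change 0.66 ± 0.11, FDR 2.59e-05). Snai1, the transcriptional repressor of Cdh1 in gastrulation, was at 0.875, 2.12 and 1.38 CPM at d2 and 0.953, 2.03 and 3.54 CPM at d2.5 (log2 fold change 0.59 ± 0.63, FDR 0.536), with overlapping groups and few counts. Among the genes that rose was also Krt8, an epithelial keratin gene, at 22.3, 20.2 and 26.5 CPM at d2 and 43.4, 45.7 and 38.96 CPM at d2.5 (log2 fold change 0.87 ± 0.16, FDR 6.34e-05).

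Targets of p53 and genes of the cell cycle changed as well. Cdkn1a, which encodes the cyclin-dependent kinase inhibitor p21, went from 111, 98.8 and 96.01 CPM to 556, 553 and 585 CPM (log2 fold change 2.47 ± 0.10, FDR 8.16e-21), the highest of 12 p53 targets, of which 7 rose, 0 fell and 5 were not called (median 0.52, 5 of 7 calls under every alternative). Phlda3 was at 10.9, 20.7 and 17.2 CPM at d2 and 41.9, 43.7 and 55.1 CPM at d2.5 (log2 fold change 1.54 ± 0.16, FDR 1.73e-09). Perp was at 18.4, 22.8 and 23.4 CPM at d2 and 49.5, 45.7 and 50.6 CPM at d2.5 (log2 fold change 1.17 ± 0.15, FDR 3.16e-07), whereas Mdm2, which encodes the ubiquitin ligase of p53, was at 76.1, 86.03 and 77.4 CPM at d2 and 76.2, 69.6 and 80.4 CPM at d2.5 (log2 fold change -0.08 ± 0.10, FDR 0.629). Groups overlapped for Mdm2 but not for the other 3.

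Of 19 tested cell cycle genes 1 rose, 10 fell and 8 were not called (median -0.30, against 13.3% higher and 12.1% lower over all genes), and without scaling factors 2 rose and 6 fell. Of the 11 calls 7 remained under every alternative. Top2a, the topoisomerase of dividing cells, was at 854, 876 and 851 CPM at d2 and 517, 508 and 459 CPM at d2.5 (log2 fold change -0.80 ± 0.07, FDR 8.86e-11), Ccnb1, the gene of cyclin B1, at 293, 314 and 284 CPM at d2 and 185, 169 and 187 CPM at d2.5 (log2 fold change -0.72 ± 0.09, FDR 8.24e-08). Cdk1 was at 206, 203 and 198 CPM at d2 and 127, 127 and 114 CPM at d2.5 (log2 fold change -0.72 ± 0.10, FDR 9.43e-07). The gene that rose was Ccnd2, which encodes cyclin D2, from 108, 158 and 124 CPM to 618, 542 and 749 CPM (log2 fold change 2.30 ± 0.14, FDR 7.96e-16). Groups were separate in all 4. Cdkn1b, a cyclin-dependent kinase inhibitor gene like Cdkn1a, was not called. It passed the threshold as lower under several alternatives, such as RLE factors (log2 fold change -0.93, FDR 0.0433), the replicate block (-0.93, FDR 0.0192) and leaving out d2.5 replicate 3 (-1.56, FDR 0.00284). In the Myc family 2 of 10 genes fell and 0 rose (median -0.18), with 12.1% of all genes lower. One of these was Mycn, at 149.5, 169 and 179 CPM at d2 and 33.3, 35.1 and 37.9 CPM at d2.5 (log2 fold change -2.23 ± 0.14, FDR 3.81e-15), and the other, Mga, lost its call without scaling factors (FDR 0.0812), without d2 replicate 3 (FDR 0.0887) and without d2.5 replicate 1 (FDR 0.125).

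Of 16 tested glycolytic genes 8 fell, 2 rose and 6 were not called, against 12.1% lower and 13.3% higher over all genes (median -0.42, 8 of 10 calls under every alternative). Hk2, the gene of hexokinase 2, was at 210.3, 208 and 219.5 CPM at d2 and 107, 105 and 116 CPM at d2.5 (log2 fold change -0.96 ± 0.09, FDR 4.54e-10). Ldha, a lactate dehydrogenase gene, was at 1230.0, 1169 and 1131 CPM at d2 and 706, 715 and 750.3 CPM at d2.5 (log2 fold change -0.70 ± 0.09, FDR 1.68e-07). The glucose transporter genes diverged, with Slc2a1 at 449, 422 and 421 CPM at d2 and 258, 259 and 259 CPM at d2.5 (log2 fold change -0.74 ± 0.10, FDR 2.58e-07). Slc2a3 was at 119, 104 and 92.6 CPM at d2 and 206, 187 and 203 CPM at d2.5 (log2 fold change 0.92 ± 0.13, FDR 1.35e-06). All 4 genes were separated between groups. Of 18 sterol synthesis genes 6 rose, 1 fell and 11 were not called (median 0.07, 13.3% and 12.1% over all genes), with Nsdhl at 56.4, 39.8 and 41.6 CPM at d2 and 77.7, 81.3 and 80.4 CPM at d2.5 (log2 fold change 0.79 ± 0.13, FDR 9.76e-06). Cyp51 was at 97.9, 104 and 94.6 CPM at d2 and 158, 156 and 134 CPM at d2.5 (log2 fold change 0.60 ± 0.09, FDR 1.65e-06).

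Markers of other cell types were measured as summed levels per library. Over 4 tested fibroblast and feeder genes of 7, the summed level was 14.9 to 21.7 CPM at d2 and 18.7 to 26.7 CPM at d2.5, and 0 were called. Endoderm genes, 6 of 9 tested, summed to 42.0 to 57.4 CPM at d2 and 67.8 to 75.7 CPM at d2.5, with Sox17 the 1 gene that rose, at 3.06, 6.90 and 5.16 CPM at d2 and 10.96, 16.3 and 15.7 CPM at d2.5 (log2 fold change 1.51 ± 0.38, FDR 0.00272). Endothelial and blood genes, 3 of 7 tested, summed to 42.9 to 47.5 CPM at d2 and 19.8 to 30.9 CPM at d2.5, with Etv2 lower, as above, and Lmo2, a blood regulator, at 3.94, 3.19 and 5.16 CPM at d2 and 12.9, 10.7 and 21.8 CPM at d2.5 (log2 fold change 1.82 ± 0.37, FDR 0.000309). Neuronal genes, 3 of 6 tested, summed to 95.3 to 109 CPM at d2 and 51.9 to 60.7 CPM at d2.5. The part of these cells in the falls of neural genes and the rise of streak genes was not tested.

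In the next 12 h, from d2.5 to d3, 1394 of 12149 genes (11.5%) were called. Both comparisons share the d2.5 libraries, so a high or low value there moves both in opposite directions, and the values are set side by side only. Cdx1 stood at 262, 215 and 215 CPM and Cdx4 at 106, 99.9 and 102 CPM at d3, with changes from d2.5 of 0.96 ± 0.12 and 2.47 ± 0.14. Fgf8 was at 143, 122 and 127 CPM (log2 fold change 1.94 ± 0.15, FDR 6e-12) and T at 318, 312 and 296 CPM (log2 fold change 0.69 ± 0.10, FDR 3.72e-06). Sp5 was at 141, 134 and 117 CPM and Fst at 190.2, 175 and 172 CPM, and neither was called between d2.5 and d3 (log2 fold change 0.25 ± 0.10, FDR 0.084 and log2 fold change -0.10 ± 0.10, FDR 0.589).

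Some early rises were followed by lower values. Eomes was at 0, 0.46 and 1.20 CPM at d3 (log2 fold change -4.44 ± 0.54, FDR 1.52e-07 against d2.5), no longer above its d2 range. Sidt1 was at 2.90, 2.76 and 2.40 CPM (log2 fold change -2.44 ± 0.36, FDR 8.92e-06) and Dkk4 at 11.6, 11.97 and 9.20 CPM (log2 fold change -1.14 ± 0.27, FDR 0.00374). Other genes were near 0 at d2.5 and higher at d3: Aplnr, which encodes the apelin receptor, went from 0.953, 0 and 0.506 CPM to 11.6, 10.6 and 10.4 CPM (log2 fold change 4.31 ± 0.55, FDR 3.91e-07), and Tbx6 stood at 15.4, 14.3 and 9.20 CPM (log2 fold change 4.55 ± 0.46, FDR 3.45e-09).

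To ask whether the response of the first 12 h differed between genotypes, the change in Nr6a1-/- cells minus that in wildtype cells was tested. Nr6a1 encodes an orphan nuclear receptor. Its own level in wildtype cells was 83.5, 87.1 and 86.4 CPM at d2 and 102, 89.4 and 102 CPM at d2.5 (log2 fold change 0.19 ± 0.12, FDR 0.268), and in Nr6a1-/- cells 88.03, 95.9 and 101 CPM at d2 and 109.7, 115 and 111 CPM at d2.5. The clone carries a different deletion in each allele, both within an exon upstream of the 3′ end, so counts of 3′ ends do not check them. The difference was called for 74 of 12149 genes (0.609%), with 1487 at an unadjusted p below 0.05. The number called ranged from 26 without Nr6a1-/- d2 replicate 2 to 216 without wildtype d2.5 replicate 3, and was 31 without wildtype d2.5 replicate 2, 33 without wildtype d2 replicate 3, 43 without Nr6a1-/- d2.5 replicate 3, 44 without wildtype d2.5 replicate 1 and 46 without Nr6a1-/- d2 replicate 1. Genotype and clone cannot be told apart, and the wildtype and Nr6a1-/- values at d2 enter the difference as much as those at d2.5.

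Gbx2, a homeobox gene of the midbrain-hindbrain region, was at 48.1, 47.8 and 34.1 CPM at d2 and 57.6, 48.8 and 52.1 CPM at d2.5 in wildtype and at 15.1, 14.6 and 17.4 CPM at d2 and 149, 141 and 129.9 CPM at d2.5 in Nr6a1-/- cells, a difference of log2 fold changes of 2.84 ± 0.21, FDR 2.64e-11. Axin2, in wildtype cells at the levels given above, was at 3.30, 3.37 and 3.41 CPM at d2 and 200.2, 209 and 199 CPM at d2.5 in Nr6a1-/- cells (2.21 ± 0.29, FDR 1.63e-05). Meis2, a Hox cofactor gene, was at 1.88, 2.62 and 3.03 CPM at d2 and 29.9, 26.6 and 31.8 CPM at d2.5 in Nr6a1-/- cells against 10.9, 7.44 and 8.60 CPM at d2 and 17.2, 13.7 and 25.3 CPM at d2.5 in wildtype (2.46 ± 0.38, FDR 0.000216). In these 3 genes the Nr6a1-/- libraries were below the wildtype ones at d2 and above them at d2.5. Crabp1 showed the opposite sign: it rose in wildtype as given above but was at 19.8, 19.1 and 23.5 CPM at d2 and 25.7, 21.01 and 20.4 CPM at d2.5 in Nr6a1-/- cells (-2.06 ± 0.20, FDR 1.5e-08). These 4 calls held under every alternative.

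**Figure D5:**
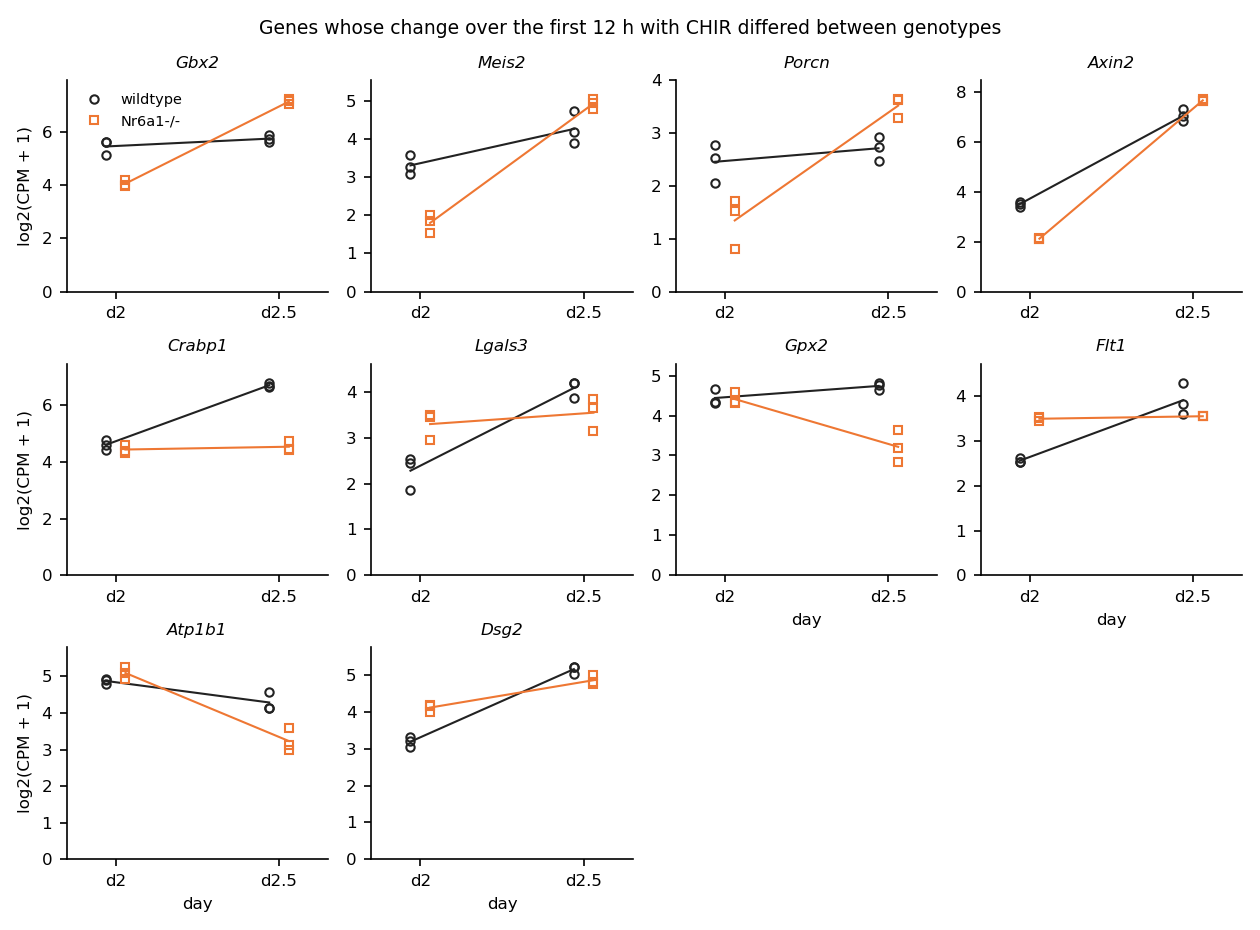
Points are single libraries of wildtype (black circles) and Nr6a1-/- cells (orange squares) at d2 and d2.5, with log2(CPM + 1) on the vertical axis, a scale of its own in each panel starting at 0, and lines joining group means of these values. The 10 genes are 4 with differences above 0 and 6 with differences below 0, with lines that cross or diverge, and for Crabp1 the wildtype line climbs while the Nr6a1-/- line stays near its d2 level.

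Most of the genes named in wildtype cells had no called difference between genotypes, which also held for all genes tested, of which 0.609% were called. The differences were 0.92 ± 0.36 for T, 0.77 ± 0.67 for Cdx2, 0.71 ± 0.35 for Sp5, -0.40 ± 0.96 for Otx2 and 0.23 ± 0.61 for Pou3f1, with FDR of 0.305, 0.722, 0.529, 0.918 and 0.929. The errors are large, so that the absence of a call does not show equal responses.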

How the data were processed

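RNA of 30 libraries was sequenced from 3′ ends, and the report concerns the 6 wildtype libraries at d2 and d2.5. The table that the authors deposited gives raw counts of genes in single libraries, neither normalised nor pooled. Their processing notes name STAR, edgeR and mm10, and the counting tool, annotation, use of strand and collapse of molecular identifiers are not given in the sources used here. If identifiers were not collapsed, amplified copies enter the counts. The authors' 5 tables of genotype comparisons (CPM, fold changes and p-values) were not used.

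Tests covered 12149 of 54134 rows, those in which 2 or more libraries of a group exceeded both 10 counts and 2 CPM. Counts of all 30 libraries were fitted in edgeR 4.0.16 (R 4.3.3) with TMM factors as 1 model of 10 groups with 20 residual degrees of freedom, and contrasts were tested with glmQLFit and glmQLFTest, 2-sided, with Benjamini-Hochberg FDR over all genes tested and a threshold of 0.05. SE was derived from the estimate and its F statistic. The procedure was tested on simulated data. Total counts of the 6 libraries were 1935182 to 3039826, and at this depth 3 counts are 0.987 to 1.55 CPM.

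Alternatives were RLE factors or none, no filter or filterByExpr, only the groups compared, DESeq2 1.42.0, thinning to the smallest library, a replicate block and leaving out each library. Replicates of d2 and d2.5 with the same number did not deviate together, which does not exclude that they were paired.

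Members and lists (25 lists, 358 genes, of which 309 were tested) were chosen with earlier results of these data known. Named are the 12 largest called rises and falls averaging 10 CPM or more at d2 or d2.5, without overlap between groups, the 6 largest called genotype differences in each direction averaging 10 CPM or more in any of their groups, and genes of the lists, and some genes that met these rules are not reported here. Positions are those of GENCODE (GRCm38), and promoters those of RefSeq (GRCm38.p6). Tle5 was found under its older name Aes.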

Additional observations from a re-analysis of the deposited data

Results flagged for a closer look

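The 10 genes below were marked because their change over the first 12 h differed between Nr6a1-/- and wildtype cells by the edgeR test of the difference itself. Values are the log2 fold change in Nr6a1-/- cells minus that in wildtype cells ± SE.

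In 4 genes the difference was above 0. Gbx2 differed by 2.84 ± 0.21, FDR 2.64e-11, Meis2 by 2.46 ± 0.38, FDR 0.000216 and Axin2 by 2.21 ± 0.29, FDR 1.63e-05. For Porcn the difference was 2.43 ± 0.57, FDR 0.0332, from 1.88, 0.749 and 2.28 CPM at d2 and 11.5, 8.75 and 11.4 CPM at d2.5 in Nr6a1-/- cells, and its call was lost in 7 of the fits that left out 1 library, with FDR up to 0.186 (without wildtype d2 replicate 3).

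In the other 6 the difference was below 0. Atp1b1 was lower at d2.5 in both genotypes, with log2 fold changes of -0.60 in wildtype and -1.96 in Nr6a1-/- cells. Crabp1 differed by -2.06 ± 0.20, FDR 1.5e-08. Gpx2, a glutathione peroxidase gene, was at 18.8, 24.4 and 19.3 CPM at d2 and 27.2, 23.9 and 26.3 CPM at d2.5 in wildtype and at 23.1, 18.7 and 19.3 CPM at d2 and 6.14, 8.05 and 11.4 CPM at d2.5 in Nr6a1-/- cells (-1.56 ± 0.30, FDR 0.00564). Lgals3 (-1.72 ± 0.38, FDR 0.0225), Flt1 (-1.48 ± 0.33, FDR 0.0237), Atp1b1 (-1.36 ± 0.31, FDR 0.0258) and Dsg2 (-1.33 ± 0.30, FDR 0.0225) lost their calls in several fits without 1 library, with FDR up to 0.0706 for Lgals3 (without wildtype d2.5 replicate 2), 0.0769 for Flt1 (without Nr6a1-/- d2 replicate 2), 0.145 for Atp1b1 (without wildtype d2.5 replicate 2) and 0.11 for Dsg2 (without wildtype d2 replicate 3).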

How the results depend on the processing

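The early response comprised 3086 genes and gave 2167 to 3144 under the alternatives other than leaving out a library, 1090 to 2052 of them higher and 1061 to 1561 lower, and 2341 to 2655 (1210 to 1381 higher, 1131 to 1278 lower) when 1 library was left out. All 24 named early genes kept their call and sign in 336 of 336 fits. Of 166 list genes called, 129 remained called under every alternative, 37 were lost under at least 1 and 0 reversed. Same-numbered d2 and d2.5 libraries had correlations of their deviations of -0.0374, -0.054 and 0.0519, and differently numbered ones of -0.0761 to 0.11. These values show no pairing by number but cannot exclude it, because counting noise also enters the deviations. The replicate block gave 3144 calls in the early response.

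The step from d2.5 to d3 had 1394 calls, 915 with libraries thinned to the smallest, where fewer counts were tested, and 966 to 1087 without 1 library. The genotype difference depended most on processing. It had 74 calls, 317 without a filter on low counts, 121 with the compared groups alone, 117 with the replicate block and 26 to 216 without 1 library, and the cause was not tested. Of 200 values of its named genes, 162 were called with the same sign. Depth limits genes under about 1 CPM in each library, among them most anterior neural and posterior Hox genes.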

Other observations

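Several further gene families, chosen with results of these data known, are counted here beside all genes tested, of which 13.3% were higher and 12.1% lower. In these families the calls of Efna3, Col4a6 and Sox3 were each lost under at least 1 alternative. Of 17 tested ephrin and Eph receptor genes, which control cell sorting and repulsion, 7 rose and 1 fell, with a median log2 fold change of 0.73. Efnb1 was at 7.43, 5.31 and 6.19 CPM at d2 and 26.2, 24.9 and 30.9 CPM at d2.5 (log2 fold change 2.09 ± 0.24, FDR 1.99e-08) and Epha4 at 5.68, 3.72 and 4.13 CPM at d2 and 14.8, 16.3 and 16.2 CPM at d2.5 (log2 fold change 1.79 ± 0.27, FDR 4.23e-06), while Efnb2, another ephrin B gene, was at 32.8, 53.6 and 40.9 CPM at d2 and 22.9, 17.8 and 25.3 CPM at d2.5 (log2 fold change -0.93 ± 0.21, FDR 0.00106). Of 5 tested laminin chains 3 rose and 0 fell, with Lama1 at 27.5, 29.7 and 30.6 CPM at d2 and 56.2, 55.9 and 55.1 CPM at d2.5 (log2 fold change 0.92 ± 0.16, FDR 2.39e-05), and of 15 collagen chains of any kind 5 rose, 0 fell and 10 were not called, with Col4a2 at 37.6, 48.3 and 32.3 CPM at d2 and 99.6, 105 and 86.01 CPM at d2.5 (log2 fold change 1.32 ± 0.16, FDR 1.09e-07).

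Of 8 DNA methylation genes 3 fell and 1 rose. The rise, that of Tet3, lost its call after thinning (FDR 0.139), without d2 replicate 1 (FDR 0.054), without d2 replicate 3 (FDR 0.155) and without d2.5 replicate 1 (FDR 0.0958). Tet1, the dioxygenase that oxidises methylcytosine, was at 264, 332 and 303 CPM at d2 and 95.8, 95.5 and 92.6 CPM at d2.5 (log2 fold change -1.66 ± 0.16, FDR 4.29e-10) and fell alongside both de novo methyltransferases. Of 10 tested Sox genes 5 fell and 1 rose, with Sox4 at 62.5, 56.3 and 73.6 CPM at d2 and 35.7, 41.2 and 38.5 CPM at d2.5 (log2 fold change -0.75 ± 0.15, FDR 0.000281) and Sox12 at 51.6, 76.5 and 56.1 CPM at d2 and 27.6, 30.5 and 35.4 CPM at d2.5 (log2 fold change -0.96 ± 0.21, FDR 0.000784). Of 75 oxidative phosphorylation genes 10 fell and 0 rose (median -0.08), but without scaling factors 3 rose and 3 fell (median 0.01), so that no direction can be read for them. Of 86 cytosolic ribosomal protein genes 0 rose and 9 fell, and of 75 mitochondrial ones 8 rose and 10 fell. Semaphorin and plexin genes gave 1 rise and 1 fall of 17, forkhead genes 3 and 5 of 21, and Kruppel-like and Sp genes 4 and 6 of 21. Claudins gave 0 and 1 of 6, FGF ligands 2 and 3 of 9, T-box genes 3 and 0 of 4 and Zic genes 1 and 2 of 4.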
